A study of Homo sapiens with 3 samples.

Results

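Human HEK 293T cells overexpressing both ADAR2 and SRSF9 were compared with the same line without overexpression, across every gene with a mean of 1 CPM or more over the 2 libraries. CPM is the count scaled to a fixed total per library after TMM, a correction for differences in library composition. That rule kept 16069 of the 57268 genes in the count table. The 3 genes just inside it were TTLL6, UBE2V1P2 and RAB43 (1.00002, 1.00016 and 1.00018 CPM), and the 3 just outside were PCGF7P, TCTEX1D2 and SNORD14E (0.99962, 0.999272 and 0.998785 CPM). The cell line field of the labels reads HEK 293T, and the sample titles read HEK293. HEK 293T is a human embryonic kidney line that carries the SV40 large T antigen. The study asks how SRSF9 affects adenosine-to-inosine editing at ADAR2 target sites, and its design has 3 groups of 1 library each. These are wild-type cells, used as the control, cells with ADAR2 alone overexpressed, and cells with both proteins overexpressed. Values given as 3 numbers follow that order: control, ADAR2, both proteins. The labels name no vector, transfection method, time or clone, and the control is described as wild type, so whether it received an empty vector is not given. RNA was total RNA purified with Trizol, and the library kit was directional. With 1 library a side there is no replicate error: each ratio below carries a 95% counting interval (exact Clopper-Pearson), which covers counting error only and says nothing of variation between cultures.

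ADAR2, encoded by ADARB1, is one of the enzymes that convert adenosine to inosine in double-stranded RNA, and it is best known for recoding glutamate receptor transcripts in neurons. SRSF9 is a member of the SR protein family, RNA-binding proteins with a domain rich in arginine and serine that help choose splice sites, and it has been reported to repress ADAR2 editing. The values here are counts of reads per gene, so they speak of transcript level and not of editing or splicing.

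The sequences behind 3 sets of results are shown first, because near-identical copies decide how far a read can be assigned to 1 gene. The adult beta-like globin genes HBB (chr11:5225464-5229395, minus strand, GRCh38) and HBD (chr11:5232678-5243657, minus strand) had the largest ratios of all. Their coding sequences are each 444 bases and differ at 32 positions (92.8% identity). The stretch from base 250 to base 399 of the coding sequence holds 16 of these differences, which are in capitals:
HBB: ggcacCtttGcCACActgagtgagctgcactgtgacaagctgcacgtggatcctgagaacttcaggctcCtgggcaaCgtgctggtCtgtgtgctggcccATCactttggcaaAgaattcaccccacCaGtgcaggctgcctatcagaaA
HBD: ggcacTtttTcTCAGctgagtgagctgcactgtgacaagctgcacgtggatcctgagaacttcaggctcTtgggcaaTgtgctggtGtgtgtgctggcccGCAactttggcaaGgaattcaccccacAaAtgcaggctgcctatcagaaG
RNU1-1 (chr1:16514122-16514285, minus strand) encodes U1 small nuclear RNA, the part of the spliceosome that pairs with the 5′ splice site. Its 164 bases are 100% identical to those of RNU1-2, RNU1-3 and RNU1-4, so counts in these 4 rows cannot be told apart by sequence. Capitals mark bases 3 to 11, which pair with the 5′ splice site:
RNU1-1: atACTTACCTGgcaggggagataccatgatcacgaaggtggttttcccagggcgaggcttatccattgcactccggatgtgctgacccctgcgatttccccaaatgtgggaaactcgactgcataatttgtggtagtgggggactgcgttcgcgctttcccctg
HSPA6 encodes an inducible cytosolic HSP70 chaperone that is little expressed in unstressed cells, and heat shock factor binds repeats of the unit GAA and its complement TTC. The 250 bases before its start (chr1:161524290-161524539, plus strand, GRCh38.p14, from RefSeq) are shown with matches to GAANNTTC and TTCNNGAA in capitals:
HSPA6: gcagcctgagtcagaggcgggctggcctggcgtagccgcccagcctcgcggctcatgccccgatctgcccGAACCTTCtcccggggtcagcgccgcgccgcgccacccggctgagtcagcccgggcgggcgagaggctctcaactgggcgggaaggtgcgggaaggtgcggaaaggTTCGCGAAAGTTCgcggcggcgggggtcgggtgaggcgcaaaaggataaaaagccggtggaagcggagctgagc
Both motifs read the same on either strand. The HSPA6 window held 3 matches, starting 180, 74 and 69 bases before the start, and the last 2 overlap to give 3 units in a row. GAANNTTC occurred in 5.85% of 27305 promoter windows of this length, TTCNNGAA in 6.72%, and 3 overlapping units in 0.439%. A match describes letters in a window and does not show that a factor binds there. The other transcripts are from GENCODE v29 on GRCh38, matched by symbol, whereas the counts were made on hg19.

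The targeted genes checked the labels. ADARB1 stood at 113.6, 16100 and 13647 CPM, the last of which is 120.2 times the control (118 to 122). SRSF9 stood at 372, 369 and 18288 CPM, so that only the library with both proteins was high, at 49.1 times the control (48.7 to 49.5). Reads of ADARB1 made up 1.34% of the library with both proteins and those of SRSF9 1.79%, against 0.0115% and 0.0376% of the control. These counts may include reads from the introduced copies, which the table does not separate. SRSF9P1, a processed pseudogene of SRSF9 under the level minimum, had 21, 15 and 97 reads.

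The other ADAR family genes did not follow. ADAR, which encodes the widely expressed ADAR1, was at 235, 231 and 224 CPM (0.954 of the control, 0.938 to 0.971). ADARB2, the brain-restricted family member with no known activity, had 0 reads in the control and 0 with both proteins, where 3 reads would be 0.0194 and 0.0313 CPM. ADAT3, a subunit of the enzyme that edits tRNA, stood at 3.72, 5.32 and 5.27 CPM (1.41 times the control, 1.25 to 1.60). Of the 5 adenosine deaminases measured (of 8 listed), ADARB1 alone was past 1.5-fold.

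Library depth was 152878282 counted reads for the control, 132887974 for ADAR2 and 97875935 for both proteins, and 34040 to 35910 genes had at least 1 read. Of 16 HEK293 marker genes 13 passed the level minimum. Their median log2 ratio was -0.0028, and the kidney developmental regulator WT1 had the largest, 0.21. Summed over the 16, these markers came to 841, 852 and 810 CPM.

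Across the transcriptome the spread of the ratios was small. The median log2 ratio of the 16069 genes, both proteins over control, was -0.0050 (quartiles -0.15 and 0.16). TMM scaling places the bulk of genes near 0, so this median is set by the scaling, and only the quartiles describe the spread. A gene is counted as different here when it passes a stated fold and its counting interval excludes 1, a size rule and not a test. By that rule 53 genes were at least 2-fold higher, which is 0.33% of those measured, and 44 were at least 2-fold lower (0.274%). At 1.5-fold the counts were 257 higher (1.6%) and 383 lower (2.38%). At these shares, a count of 0 past 1.5-fold in a short gene list is no result about its members. Weak genes carried most of them: only 10 of the 53 and 0 of the 44 had a mean of 10 CPM or more. Of the 53, 19 were under 1 CPM in the control, and of the 44, 26 were under 1 CPM with both proteins, so these entered the comparison only through the library in which they were high. An interval that excludes 1 is by itself no sign of a difference between cultures, since at this depth 68.8% of genes had one.

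**Figure D1:**
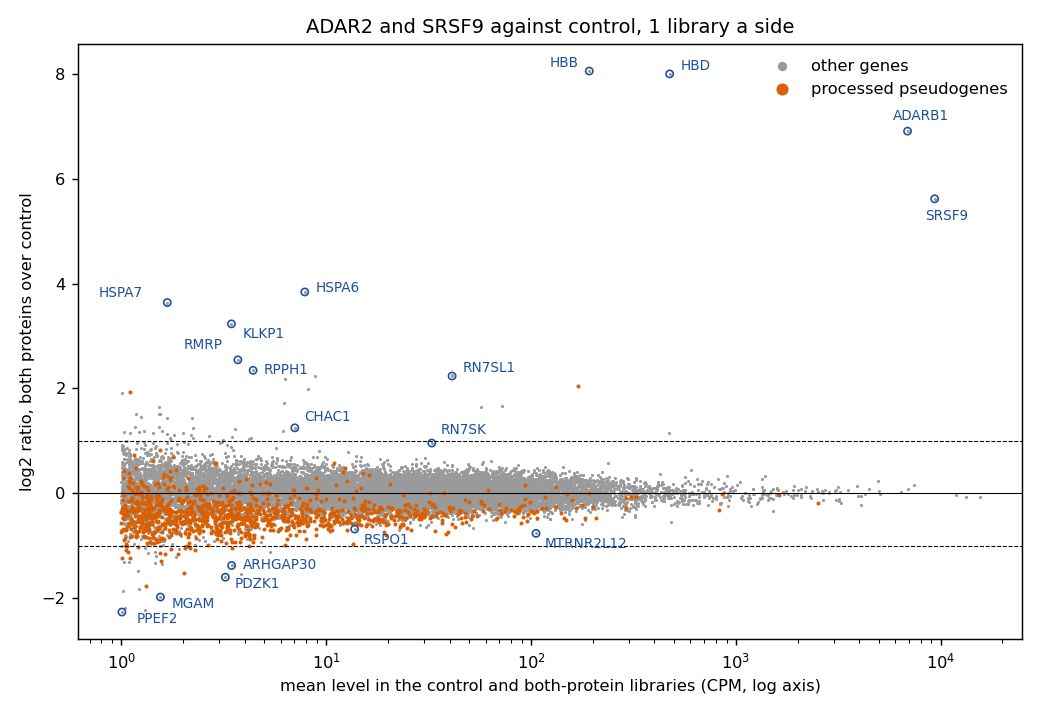
Log2 ratio of the library with both proteins over the control (vertical axis) against the mean level of the 2 libraries in CPM (log axis), 1 point per gene for 16069 genes, with dashed lines at 2-fold. HBB, HBD, ADARB1 and SRSF9 lie far above the rest, and processed pseudogenes (orange) sit mostly below 0.

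The highest genes were of unlike kinds. By the type given in the reference, 14 of the 53 genes at least 2-fold higher were protein-coding, 19 were long noncoding or antisense transcripts, 6 were small nuclear or other small noncoding RNAs, 5 were pseudogenes and 9 had no type. The reference types RMRP and SCARNA2 as lincRNA and RPPH1 as antisense, and gives RN7SL1, RN7SL2 and RN7SL3 no type. These structured RNAs, described below, are thus not among the 6. The 44 lower genes held 17 protein-coding genes and 23 pseudogenes. Of all 16069 genes, 12780 were protein-coding, 1070 processed pseudogenes, 571 antisense transcripts and 413 lincRNAs.

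The globins came first. HBB had 222, 154 and 36744 reads, or 1.44, 1.15 and 383 CPM, 266 times the control (234 to 306). HBD had 570, 476 and 90665 reads, or 3.69, 3.55 and 946 CPM, 256 times the control (236 to 279). Both globins were thus high in 1 of the 3 libraries, and together they made up 0.13% of its reads. HBD is the minor adult beta-like chain in red cells, yet there were 2.47 HBD reads for each HBB read with both proteins, beside 2.57 in the control and 3.09 with ADAR2. The coding sequences have the same length and differ at 32 positions, of which 16 are shown above. How far reads can be assigned to 1 of these genes was not tested.

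The other globin genes did not share this difference. The alpha globins HBA1 and HBA2 were at 5.06 and 4.55 CPM in the control and 6.28 and 5.38 with both proteins, and theta globin HBQ1 at 11.1 and 13.4. The fetal and embryonic genes were under the level minimum: HBG1 had 0 and 1 reads, HBG2 8 and 0, and HBE1 35 and 5. The erythroid markers did not accompany HBB and HBD: apart from TFRC, the transferrin receptor of dividing cells, 11 such genes summed to 3.20 CPM in the control, 3.11 with ADAR2 and 3.14 with both proteins. Glycophorin B (GYPB) had 0 reads in both libraries and the alpha-haemoglobin stabilising protein AHSP 0 and 1.

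A set of short, structured noncoding RNAs was also higher with both proteins. They were grouped after their values were seen, apart from those on the lists of 7SK, signal recognition particle, RNase P and RNase MRP genes. The genes RN7SL1 and RN7SL2, which encode 7SL, the RNA core of the signal recognition particle, read 14.4 and 14.3 CPM in the control, 12.1 and 12.2 with ADAR2 and 67.9 and 68.3 with both proteins. That is 4.72 times (4.49 to 4.95) and 4.78 times (4.55 to 5.01) the control. RN7SL3 was 3.29 times the control (2.94 to 3.70), and the copies RN7SL4P and RN7SL5P had log2 ratios of 2.17 and 1.99. The transcripts of RN7SL1 and RN7SL2 are 98.3% identical over 300 aligned positions, so these rows share reads and are best read as 1 measurement of 7SL RNA. Of the 8 rows named RN7SL that were measured, 6 were at least 2-fold higher. The protein genes of the particle did not follow: SRP9, SRP14, SRP19, SRP54, SRP68 and SRP72 had log2 ratios between -0.23 and 0.040.

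The RNA subunits of the related endonucleases showed the same order of libraries. RMRP, the RNA of RNase MRP, which processes ribosomal RNA, had 167 reads (1.08 CPM) in the control, 42 (0.313 CPM) with ADAR2 and 607 (6.33 CPM) with both proteins. Its ratio to the control was 5.84 (4.93 to 6.99). RPPH1, the RNA of RNase P, which trims the 5′ end of tRNA precursors, read 1.44, 0.670 and 7.35 CPM, a ratio of 5.08 (4.38 to 5.95). The 10 protein subunits on that list ranged in log2 ratio from -0.16 to 0.39.

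RN7SK, which holds the elongation kinase P-TEFb in an inactive state, read 22.3 CPM in the control, 1.88 with ADAR2 and 43.3 with both proteins (1.94 times the control, 1.86 to 2.03). It was therefore lowest in the ADAR2 library and highest with both proteins. The other 8 members of its list, among them HEXIM1, LARP7 and CDK9, stayed under 1.5-fold. The 4 identical U1 rows lay between 2.75 and 2.87 times the control, from 95 to 124 reads in the control to 168 to 220 with both proteins, and at 0.485 to 0.510 of the control with ADAR2. SCARNA2, a guide RNA for the modification of small nuclear RNAs, was 3.13 times the control (2.49 to 3.97). In the control the U1 rows stood at 0.615 to 0.803 CPM and SCARNA2 at 0.738 CPM. These rows thus entered the comparison only through the library with both proteins, in which they were high.

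The U6 and snoRNA rows and BCYRN1 were not higher to the degree of U1 and 7SL. The 8 U6 rows measured, with 172 to 353 reads in the control, had log2 ratios from -0.43 to 0.32, and none was past 1.5-fold. Of 23 snoRNA rows, 3 were at least 1.5-fold higher, and SNORD104 had the largest log2 ratio, 0.78. BCYRN1, a cytoplasmic RNA related to the Alu sequence, read 191, 184 and 285 CPM (1.49 times the control, 1.47 to 1.52). TERC, the RNA template of telomerase, was under the level minimum with 49 and 77 reads, or 0.317 and 0.803 CPM. Its ratio to the control was 2.51 (1.75 to 3.70), an interval that covers the U1 ratios. Many of these RNAs lack a poly(A) tail, and whether the libraries were made by poly(A) selection or by removal of ribosomal RNA is not given in the labels.

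Some clone-named rows had the same order of libraries. CTD-2328D6.1 read 292, 109 and 652 CPM, and AC010970.2 read 66.4, 22.7 and 273 CPM. AC079949.1 and AL161626.1 stood at 3.19 and 3.11 times the control with both proteins and at 0.420 and 0.412 with ADAR2. MIR3648 and MIR3687, annotated in the spacer of the ribosomal RNA precursor, were at 0.445 and 0.342 of the control with ADAR2 but at 1.13 and 1.24 with both proteins. Removal of the GC trend described further on takes the log2 ratio of MIR3648 with both proteins from 0.18 to -0.096 and that of MIR3687 from 0.31 to 0.041.

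**Figure D2:**
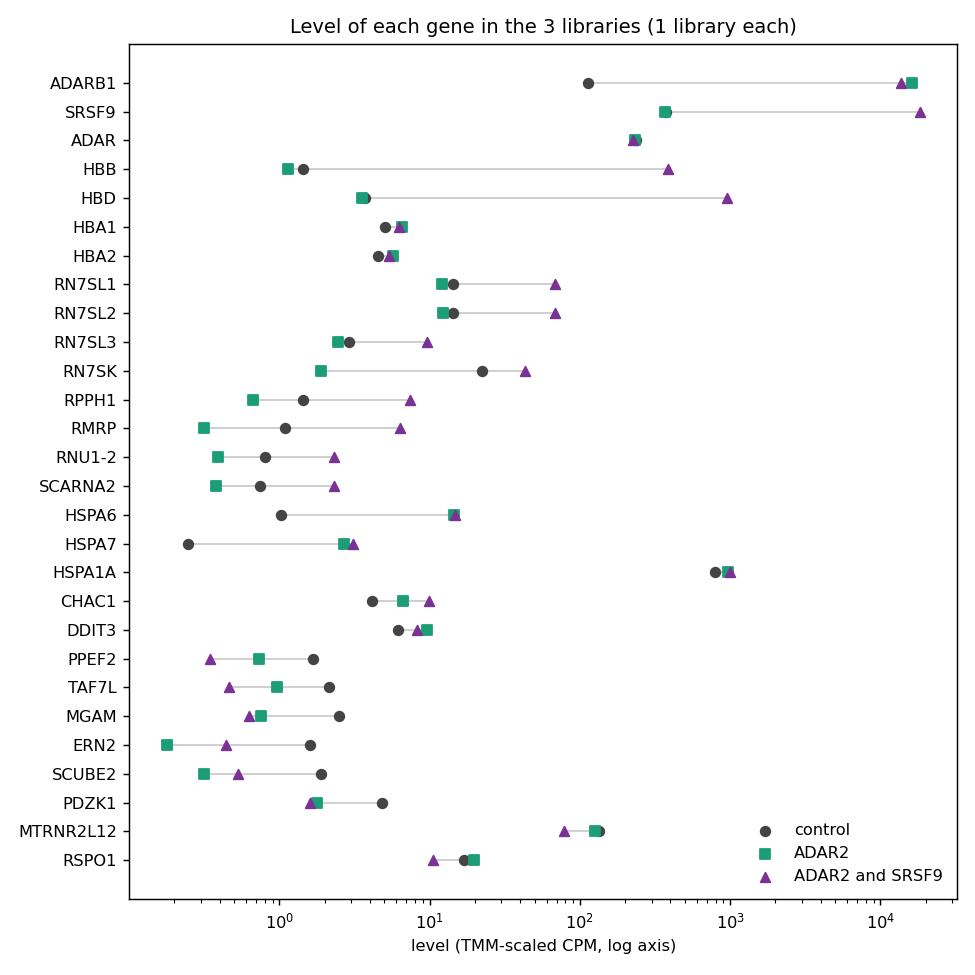
Level of 28 genes in each of the 3 libraries, in TMM-scaled CPM on a log axis, with 1 point per library and no error bar because each group has 1 library. The structured RNAs RN7SK, RPPH1, RMRP, RNU1-2 and SCARNA2 are lowest with ADAR2 and highest with both proteins, HSPA6 and HSPA7 are high in both overexpressing libraries, and HBB and HBD are high in 1.

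Heat shock genes gave 1 large difference and several small ones. HSPA6 had 158 reads (1.02 CPM) in the control, 1947 (14.5 CPM) with ADAR2 and 1410 (14.7 CPM) with both proteins, 14.3 times the control (12.2 to 17.1). HSPA7, a pseudogene beside it whose longest transcript matches that of HSPA6 at 80.1% of aligned positions, went from 38 to 298 reads, and its reads may be shared with HSPA6. HSPA7 stood at 0.246 CPM in the control and 3.11 with both proteins, so it entered the comparison only through the library with both proteins. The other inducible pair, HSPA1A and HSPA1B, read 794 and 1239 CPM in the control, 972 and 1495 with ADAR2 and 1004 and 1548 with both proteins, log2 ratios of 0.34 and 0.32. The constitutive members were lower or level, with HSPA8 at -0.13, the endoplasmic reticulum chaperone HSPA5 at -0.13 and mitochondrial HSPA9 at 0.017. Of 15 HSP70 family genes measured, HSPA6 alone passed 1.5-fold, and the list's median log2 ratio was -0.096. GAANNTTC was found in the windows before the start of HSPA1A, HSPA1B and HSPA8 too, and in 5 of 14 windows of the family. The run of overlapping units shown above for HSPA6 was found in 2 of the 14, those of HSPA6 and HSPA8. Whether these motifs bear on the ratios was not tested. None of the 22 other heat shock genes passed 1.5-fold (median -0.035), and DNAJB4, a co-chaperone, was lowest at 0.671 of the control (0.629 to 0.715).

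In the list of unfolded protein and integrated stress response genes, 1 of 32 passed. CHAC1, a glutathione-degrading enzyme and a target of ATF4, read 4.16, 6.63 and 9.90 CPM (2.38 times the control, 2.15 to 2.63). The pro-apoptotic factor DDIT3 read 6.16, 9.66 and 8.28 CPM. The list's median log2 ratio was 0.089, with ATF4 at 0.063, ASNS at 0.14, DDIT4 at 0.34 and SESN2 at 0.39, while the sensors ERN1 and EIF2AK3 were at -0.17 and -0.22 and XBP1 at -0.24.

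Genes of RNA processing differed little, SRSF9 aside. The other 11 SR protein genes had log2 ratios between -0.22 (SRSF12) and 0.20 (SRSF6), and SRSF1, the paralog closest to SRSF9, read 530, 468 and 462 CPM. SRPK3, a kinase that phosphorylates SR proteins, was the 1 member past 1.5-fold among 16 kinases and SR-related genes, with 263, 294 and 350 reads (2.14 times the control, 1.82 to 2.53). Its abundant relatives SRPK1 and SRPK2 stood at -0.13 and -0.21. None of 27 hnRNP genes (median -0.0018, largest RALY at 0.22) or 40 core spliceosome genes (median 0.042, largest PRPF31 at 0.25) passed 1.5-fold. Among 25 reported regulators of ADAR editing the only members past 1.5-fold were the overexpressed genes themselves, and the median was -0.060.

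Transcripts with known recoding sites lay near the other genes. None of the 16 measured passed 1.5-fold, but of all measured genes only 1.6% were higher and 2.38% lower, so this is not particular to them. Their median was -0.014, and NEIL1, a DNA glycosylase with an edited lysine codon, had the largest log2 ratio, 0.34. AZIN1, COG3, COPA and CDK13 had log2 ratios from -0.18 to -0.15, BLCAP 0.14 and FLNA 0.058. Of the neuronal targets, GRIA2 had 6 reads in the control and 16 with both proteins, and HTR2C 36 and 28, below the level at which the comparison was made.

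Sensors of double-stranded RNA and interferon targets showed no common direction. Among 8 sensor and OAS genes measured the median was -0.016, and DHX58, a RIG-I-like helicase, was highest at 0.45. DHX58 stood at 0.958 CPM in the control and 1.31 with both proteins, so it entered only through the latter. Among 26 interferon-stimulated genes the median was 0.0069. SP100, a nuclear body protein, was the 1 member past 1.5-fold, at 0.620 of the control on 198 and 76 reads. SP100 stood at 1.28 CPM in the control and 0.793 with both proteins, so it entered only through the control. ISG15 read 4.89, 4.98 and 5.65 CPM.

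Protein-coding genes at 10 CPM or more were the best measured, and few of them differed. Of 9593, 11 were at least 1.5-fold higher and 12 lower. With the trend of the ratio on GC content removed, as described further on, 4 of the 11 (ADARB1, SRSF9, HBB and HBD) and 2 of the 12 (MTRNR2L12 and RSPO1) stayed past 1.5-fold. Besides ADARB1, SRSF9, HBB, HBD and a gene with a clone-based name, the 11 were C14orf80 (1.58 times the control, 1.503 to 1.66), SLC38A10, an amino acid transporter relative (1.53), TERT, the catalytic subunit of telomerase (1.53, 1.43 to 1.63), PYCRL, an enzyme of proline synthesis (1.52), PIGQ, of glycolipid anchor synthesis (1.51), and ARPC4, an actin-nucleating complex subunit (1.503). COMTD1, EME2, TMEM175, ZNF512B and HELZ2 followed at 1.47 to 1.49. In each of these genes from C14orf80 to HELZ2 the ADAR2 library lay between the other 2, at 1.18 to 1.41 times the control. Both ratios stand on the same control library, so nothing is read from that order. Noncoding genes of similar size at this level were VPS9D1-AS1 (1.60), SNHG11, a snoRNA host gene (1.63, 1.53 to 1.75), and LINC00342 (1.53). Strand use in the counting is not given, so reads of VPS9D1-AS1 and of the gene it overlaps cannot be told apart.

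The lowest protein-coding genes at 10 CPM or more began with 2 nuclear copies of mitochondrial ribosomal RNA, MTRNR2L12 (0.589 of the control) and MTRNR2L8 (0.619). RSPO1, a secreted Wnt agonist, read 17.0, 19.6 and 10.6 CPM (0.623, 0.579 to 0.670) and was thus low in the library with both proteins alone. SGOL2, which protects cohesin at centromeres, read 37.3, 27.8 and 24.0 CPM (0.643), and TFPI, an inhibitor of coagulation, 12.5, 9.49 and 8.18 (0.655). UTP14C, ZNF654, JMJD1C, RBM12B, C10orf118 and GOLGA4 lay between 0.656 and 0.662, with the ADAR2 library at 0.670 to 0.736. PABPC3, an intronless copy of a poly(A) binding protein gene, differed from these: it read 22.05, 22.4 and 14.6 CPM (0.662). C1orf192, DNAJB4 and KIF18A, a mitotic kinesin, followed at 0.667 to 0.675.

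Among the weaker protein-coding genes, at 1 to 10 CPM, the ratios were larger and rest on fewer reads. Besides HSPA6, CHAC1 and SRPK3, described above, the 10 highest were CDHR2, a brush border cadherin, at 2.86 times the control (2.29 to 3.61), the histone gene HIST1H4C at 2.37 (1.98 to 2.85), the tight junction gene CLDN6 at 2.21, the adhesion molecule MADCAM1 at 2.15, the phosphatase DUSP2 at 2.07, NPEPL1 at 2.07 and the aminotransferase GPT at 1.96. In each of these genes the control was the lowest of the 3 libraries, but they were picked for a high ratio to this control, so nothing is read from that. For HIST1H4C the ADAR2 library was at 1.01 times the control (0.822 to 1.24). CDHR2 and CLDN6 were at 0.803 and 0.686 CPM in the control and entered the comparison only through the library with both proteins.

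PPEF2, a photoreceptor phosphatase, had 258 reads in the control, 98 with ADAR2 and 33 with both proteins (0.208 of the control, 0.139 to 0.297). TAF7L, a testis form of a TFIID subunit, had 332, 130 and 44 (0.215). MGAM, an intestinal maltase, had 383, 101 and 60 (0.254), and ERN2, the gut form of an unfolded protein sensor, 247, 24 and 42 (0.276). SCUBE2, PDZK1 (an apical scaffold protein), ARHGAP30, NAALADL1 and FOXD4L4 followed at 0.282 to 0.397. Of the 17 protein-coding genes at least 2-fold lower with both proteins, 12 were under 1 CPM with both proteins and entered the comparison only through the control. The highest control level among the 17 was 7.33 CPM. The ADAR2 values stand beside the same control library, so nothing is read from both being lower. In bulk RNA, fewer cells that make a transcript and less of it per cell cannot be told apart.

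Nuclear copies of mitochondrial sequence were lower as a group. Of 8 MTRNR2L genes measured, 5 were at least 1.5-fold lower, and the median log2 ratio was -0.69 with both proteins and -0.081 with ADAR2. MTRNR2L1 was lowest, at 265, 226 and 36 reads (0.221 of the control), and MTRNR2L2 was at 48.9, 44.5 and 28.4 CPM. The mitochondrial genome's own transcripts did not share this: 13 mitochondrially encoded genes had a median of -0.072 and a range from -0.23 (MT-ND5) to 0.23 (MT-CYB). All 10 measured mitochondrial pseudogenes had log2 ratios below 0 (median -0.59).

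Processed pseudogenes, intronless copies of spliced transcripts, showed the widest common shift. The 1070 measured had a median log2 ratio of -0.42 (quartiles -0.57 and -0.26), and 977 of them were below 0. The 12780 protein-coding genes had a median of 0.0014. Of the 383 genes at least 1.5-fold lower, 243 were processed pseudogenes and 100 were protein-coding. In the ADAR2 library the pseudogenes' median against the control was 0.031. Processed pseudogenes took 2.24% of the reads in each of the other libraries and 1.82% with both proteins. The shift did not depend on level: in 5 bins of 214 genes the median ran from -0.46 to -0.37.

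The parents did not share it. For 572 processed pseudogenes a named parent was measured, and 533 of them had a lower ratio than the parent, with medians of -0.42 for the copies and -0.032 for their parents. Against the control the ADAR2 library gave 150 of 572. EEF1A1, a translation elongation factor, had a log2 ratio of -0.079 while its 20 pseudogenes ran from -0.98 to -0.15 (median -0.51), and EEF1A1P22 read 18.0, 18.7 and 9.15 CPM. NPM1, a nucleolar chaperone, stood at -0.15 and its 13 copies at a median of -0.49. HNRNPA1 was at 0.14 and its 22 copies at -0.32. The 12 copies of RPS4X had the lowest median among families of 6 or more, -0.63, and the 6 copies of HMGN2 the highest, -0.095. Copies share sequence with their parents, and the treatment of reads that match several places is not given, so these values are uncertain.

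**Figure D3:**
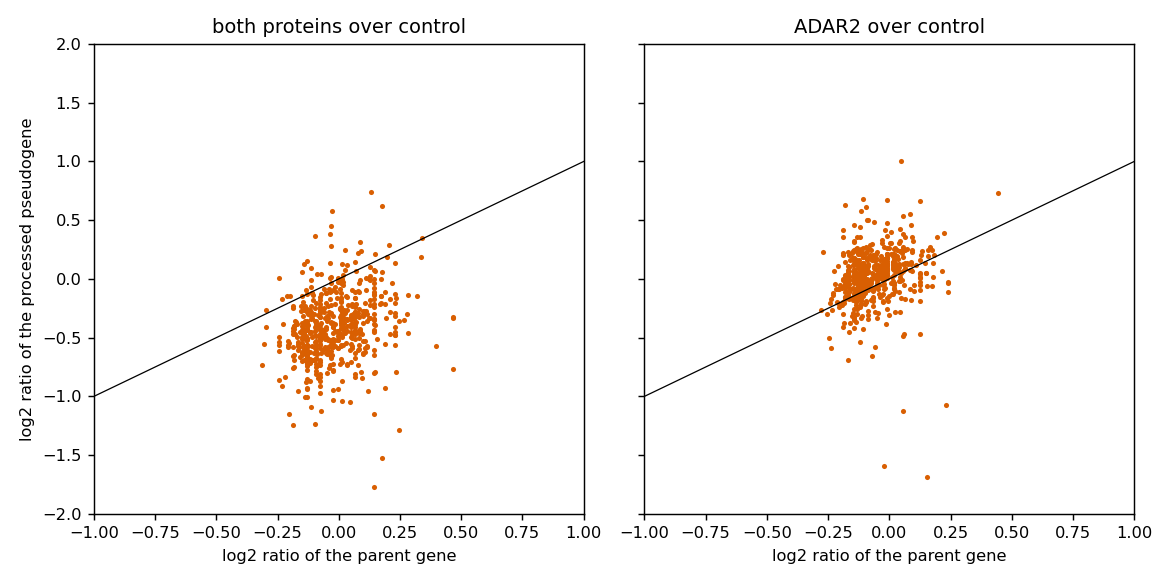
Log2 ratio of 572 processed pseudogenes (vertical axis) against that of their parent genes (horizontal axis), for both proteins over control (left) and ADAR2 over control (right), with a line where the 2 are equal. On the left 533 points lie below the line, on the right 150, and both panels use the same control library.

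Histone and cell cycle genes differed little. Of 24 replication-dependent histone genes measured (of 65 listed), HIST1H4C was past 1.5-fold higher and HIST1H2AC lower (0.524, 0.460 to 0.595). The list's median was 0.12, but -0.19 among members at 10 CPM or more and -0.037 with the GC trend removed. The 42 mitosis genes had a median of -0.23 and 37 were below the control, yet none reached 1.5-fold, and TOP2A, which untangles chromosomes, was lowest at 569, 412 and 390 CPM (0.686 of the control, 0.678 to 0.694). CENPF, TTK, ECT2 and AURKA had log2 ratios from -0.51 to -0.43. The ADAR2 library gave a median of -0.18 for the same genes. The 44 DNA replication genes were level, with a median of -0.033 and MCM5, a helicase subunit, highest at 0.36.

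The remaining lists stayed near the median of all genes. No direction is read from medians this small with 1 library a side. Of the 42 list medians, 26 changed sign under at least 1 other setting, none of them larger than 0.12 in size. The medians of the p53 targets, the histone lysine demethylases and the RNase P and MRP genes were larger and were not among the 26. The 26 p53 targets had a median of -0.13, beside 0.14 with ADAR2, with GDF15, a stress cytokine, at 0.705 of the control and CDKN1A at 43.9, 58.4 and 36.1 CPM. The 18 NRF2 targets had a median of 0.060, the 6 metallothionein and zinc genes 0.055 (MT1F, 0.45) and the 31 immediate-early genes 0.020 (EGR2, 0.42). The 20 histone lysine demethylases had a median of -0.14, with JMJD1C past 1.5-fold and KDM5B at 89.0, 60.9 and 60.7 CPM. RSPO1 was the 1 of 16 Wnt feedback genes past 1.5-fold (median 0.085), PABPC3 the 1 of 17 poly(A) and cap-binding factors (-0.081), SNHG11 the 1 of 18 snoRNA host genes (-0.022), and HOXD1, a homeobox gene, the 1 of 34 in the HOX clusters (0.0070), at 108 and 127 reads. HOXD1 stood at 0.699 CPM in the control and 1.32 with both proteins, so it entered only through the library in which it was high. No member passed 1.5-fold among 79 cytosolic ribosomal proteins (0.014, largest RPS15 at 0.28), 43 respiratory chain subunits (0.035, ATP5D at 0.40), 31 proteasome subunits (0.028, PSMB6 at 0.19), 33 glycolysis and hypoxia genes (-0.027, ANKRD37 at 0.54) and 30 genes of cholesterol and fatty acid synthesis (0.068, FASN at 0.45). The same held for 16 nonsense-mediated decay factors (-0.044, SMG9 at 0.26) and 10 paraspeckle and nuclear long noncoding RNAs (0.092, TUG1 at -0.36). The medians of the 9 genes of 7SK, 11 of the signal recognition particle and 12 of RNase P and MRP were 0.049, -0.011 and 0.16.

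Markers of other cell types were low or level. Of the erythroid, blood, fibroblast and epithelial lists 2 genes each were measured, with medians of -0.16, 0.087, 0.18 and 0.045, and the largest erythroid, fibroblast and epithelial members were TAL1 (-0.25), COL1A1 (0.21) and EPCAM (0.049). Blood markers summed to 5.06 CPM in the control and 5.58 with both proteins, fibroblast markers to 88.2 and 99.3, and epithelial markers to 8.79 and 9.03.

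**Figure D4:**
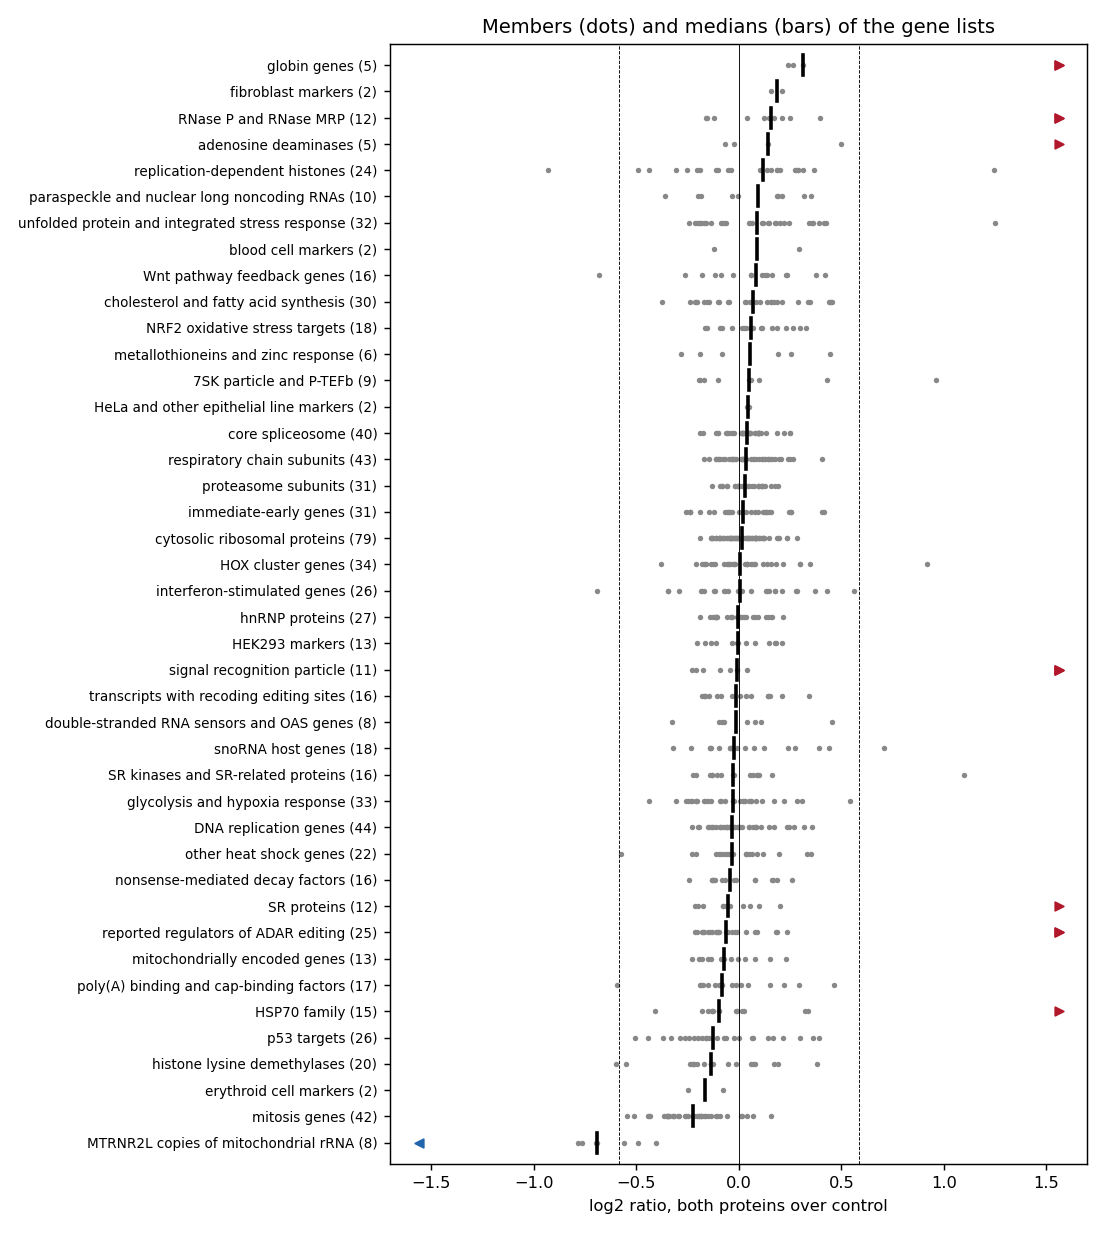
Log2 ratio of both proteins over control for the measured members of 42 gene lists (grey dots, number measured in brackets) with each list's median (black bar) and dashed lines at 1.5-fold. Arrowheads stand for members beyond 1.5 on the log2 axis. MTRNR2L copies lie lowest with a median of -0.69, and all other medians but that of the globins (0.31) fall between -0.23 and 0.18.

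The most abundant genes were close to level. Among the 100 genes of highest mean CPM, passing over pseudogenes and clone-based names, and after ADARB1 and SRSF9, the highest ratios were those of HSPA1B (1.25), RPS15 (1.22) and MT-CYB (1.17), and the lowest those of LDHA (0.843), MT-ND5 (0.855), MT-ND6 (0.873), MT-ND1 (0.884) and SERBP1 (0.891).

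The ratio went with base composition. Over 9593 protein-coding genes at 10 CPM or more, Spearman's correlation of the log2 ratio with the GC content of the longest transcript was 0.742, a description across genes that share the same 2 libraries. In 10 equal bins by GC, the lowest (median GC 36.8%) had a median log2 ratio of -0.17 and the highest (63.8%) 0.25. The ADAR2 library had -0.17 and 0.18 in these bins. The 11 genes at least 1.5-fold higher had a median GC of 63.2% and the 12 lower ones 40.2%, against 47.9% overall. With the trend of the ratio on GC removed, the log2 ratios of TERT and SLC38A10 went from 0.61 to 0.35 and 0.36, that of TOP2A from -0.54 to -0.39, and the mitosis median from -0.23 to -0.16. The larger ratios kept most of their size: RMRP went from 2.55 to 2.31, HSPA6 from 3.84 to 3.68 and PPEF2 from -2.27 to -2.22. The processed pseudogenes' median went to -0.39. The part of GC content in the smaller differences was not tested.

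**Figure D5:**
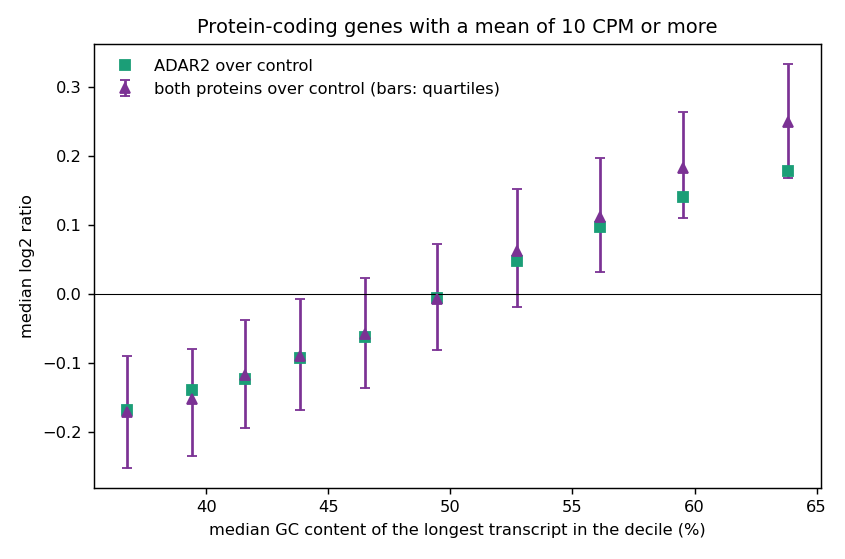
Median log2 ratio over the control for 10 bins of 9593 protein-coding genes ordered by GC content (horizontal axis, %), with quartile bars for both proteins (purple triangles) and medians for ADAR2 (green squares). Both series run upward, from -0.17 to 0.25 and from -0.17 to 0.18.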

How the data were processed

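The authors deposited 1 table of read counts per gene for 3 libraries, whose columns match the sample descriptions. The submitters' processing notes name STAR, Picard, GATK, SAMtools and the hg19 build; for the counting program, its strand setting and its handling of multiply mapped reads, the sources used here give nothing. From the deposited counts, libraries were scaled by TMM over all 3 (edgeR 4.0.16, R 4.3.3). The log2 ratio used a prior count of 0.5. Intervals are exact 95% Clopper-Pearson intervals of 1 library's share of both libraries' reads (scipy 1.17.1). No p-value was computed, since each group has 1 library. GENCODE v29 supplied each gene's type, length and GC content and matched 51802 of 57268 identifiers; 472 measured genes had no match.

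The text names ADAR, ADARB1, ADARB2 and SRSF9. To these were added the 15 highest and lowest genes at 10 CPM or more (all, and protein-coding), the 10 highest and lowest protein-coding genes at 1 to 10 CPM, and the 5 highest and lowest of the 100 most abundant. Members of the 42 lists at 1.5-fold or more were named as well, at most 6 a list, or else the largest. Clone-based names, pseudogenes and RNAs under 200 bases were passed over in the sets by level. Among the 100 most abundant no length limit applied, and list members were not filtered in this way. The comparison and the lists were chosen with earlier results of these data known. HSPA7, KLKP1, the RN7SL copies, U1, SCARNA2, the clone-named rows, the pseudogene families and the further list members named were chosen after their values were seen. Where a symbol had 2 rows, the row with more reads was used. The ratio and interval code was tested on simulated counts. Some genes and sequences that the rule would give are not reported here.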

Additional observations from a re-analysis of the deposited data

How the results depend on the processing

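Settings were changed 1 at a time. The 6 main results kept their direction under DESeq2 1.42.0 size factors, upper-quartile scaling, TMM from the 2 libraries alone, library sizes without mitochondrial, overexpressed and globin genes, and a prior count of 5, and no count moved by over 1.5 times there. With plain library totals the ADARB1 ratio was 116 and the SRSF9 ratio 47.6, and with the GC trend removed they were 114 and 53.01. The counts depend on the level minimum. With no minimum beyond 1 read they were 1717 higher and 1477 lower at 2-fold, and 2389 and 2260 at 1.5-fold. At a mean of 10 CPM or more they were 10 and 0, and 25 and 40. Protein-coding genes alone gave 14 and 17, and 103 and 100. An interval wholly beyond the fold left 32 and 13, and 76 and 104. Removal of the GC trend, which also leaves out genes with no GC value, took the 1.5-fold higher count to 160.

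Of 95 genes named by the rule, none changed sign under any setting run on them, though 55 moved beyond their counting interval under at least 1. Many of the 95 were picked for large ratios, and a change of scaling moves all genes alike. A change of sign was thus unlikely from the start. Among the genes named after their values were seen, MIR3648 went from 0.18 to -0.096 with the GC trend removed. Of 42 list medians, 17 changed sign with the GC trend removed, 7 with plain totals, 7 at 10 CPM or more, 1 among protein-coding genes alone, and 10 when the mean replaced the median. The largest of these, and the 1 over 0.1 from the median of all genes, was that of the replication-dependent histones, 0.12, which became -0.19 at 10 CPM or more and -0.037 with the GC trend removed. The cause was not tested. Plain totals moved the share of higher calls at 1.5-fold, giving 184 higher and 485 lower beside 257 and 383. The shift of the median of all genes was at most -0.045, under plain totals. No paired analysis was possible because each group has 1 library, and no library could be left out for the same reason. Depth limits weak genes: 3 reads correspond to 0.0194 CPM in the control and 0.0313 with both proteins.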

Other observations

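KLKP1, a transcribed pseudogene of the kallikrein cluster, was among the highest rows of the comparison: it had 102 reads in the control, 60 with ADAR2 and 598 with both proteins (9.40 times the control, 7.65 to 11.8). It stood at 0.660 CPM in the control and 6.24 with both proteins, so it entered the comparison only through the library in which it was high. MIR22HG, host of miR-22, had 318, 788 and 402 reads, so it was high in both overexpressing libraries and higher with ADAR2. By type, 47 of 571 antisense transcripts were at least 1.5-fold higher with both proteins and 5 lower, and 30 of 413 lincRNAs were higher and 9 lower. Over all measured genes 1.6% were higher and 2.38% lower, and of the 5711 genes at 1 to 10 CPM 232 were higher and 343 lower. The part of level in the class counts was not tested. Without the strand setting of the counting, antisense reads and those of the opposite gene cannot be told apart. The 4 measured rows named Y_RNA had log2 ratios from 0.49 to 0.91 with both proteins and from 0.74 to 1.03 with ADAR2.

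Below the level minimum, 7520 genes had at least 30 reads over the 2 libraries. At 4-fold, 45 of them were higher with both proteins and 154 lower, and among 2163 protein-coding ones 13 were higher and 74 lower. This minimum is in reads and the control library was deeper, so a gene seen mainly in the control entered more easily. No excess of lower genes is read from these counts. Genes with 0 reads with both proteins entered through the control alone. The lower ones included GPR112, an adhesion receptor, with 83 reads in the control and 0 in both other libraries. CBLN4, a secreted synaptic protein, had 44, 0 and 0 reads, and AGT, angiotensinogen, 39, 2 and 0. TMEM40 had 175, 8 and 3 reads, the intestinal mucin MUC2 174, 6 and 8, the placental phosphatase ALPP 82, 18 and 3, and the muscle myosin MYO18B 88, 7 and 6. Among the higher ones, the vasopressin receptor AVPR2 had 2, 5 and 34 reads, the coagulation factor subunit F13B 3, 2 and 39, and the cytokine CSF3 10, 14 and 56. These genes were chosen after their values were seen, and each value comes from 1 library.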
